A study of Mus musculus with 5 samples.

Results

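The nuclear genes of the respiratory chain and ATP synthase were described in the ventromedial hypothalamus (VMH) of mice after electroconvulsive shock. Members were all genes whose symbol in the array's probe set annotation starts with Ndufa, Ndufb, Ndufc, Ndufs, Ndufv, Uqcr, Sdh followed by a to d, Cox4, Cox5, Cox6, Cox7, Cox8 or Atp5. The rule gave 96 symbols, and 87 of them had a probe set of their own, out of 12393 such genes on the array. Of these, 79 were bright enough to be described, among 6650 genes kept. They comprised 32 genes of complex I, 4 of complex II, 8 of complex III, 11 of complex IV, 17 of ATP synthase, and 7 assembly factors whose names carry the same prefixes (Ndufaf and Sdhaf genes).

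The animals were C57Bl/6 mice under isoflurane, given either 1 or 7 electroconvulsive shocks through ear clip electrodes, with brains taken 2 h or 6 h after the shock. Sham mice were handled alike, received no current, and were collected at 2 h, so that a comparison of either 6 h array with sham is not matched in time. The VMH was cut out of stained sections by laser microdissection, RNA of 2 or 3 animals was pooled, and each of the 5 groups is 1 array: sham, 1 shock at 2 h, 7 shocks at 2 h, 1 shock at 6 h and 7 shocks at 6 h. The design text mentions a repeat on other animals, which is not used here. With 1 array a group there is no spread between replicates and no test, and every difference below compares 2 arrays.

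The values are hybridisation signals, written here as centred signals: each array was shifted on the log2 scale so that its median equals that of the others, and a constant of 1.2 is included. A gene takes the value of its brightest probe set. A difference is a log2 difference between centred signals, and a gene was called where it reached 1 on that scale, which is 2-fold. The number of arrays limits the precision. Before centring, the ECS arrays stood -0.13 to 0.50 from sham on the log2 scale. The 3' to 5' ratio of the Gapdh control ran from 5.37 at 6 h after 1 shock to 8.77 at 2 h after 1 shock, and that of the actin control from 0.59 at 6 h after 7 shocks to 1.10 at 6 h after 1 shock. The array of 1 shock at 6 h, on which the members were most often highest, thus held the lowest Gapdh and the highest actin ratio, and their part in the results was not tested. Titles name the VMH and a free-text field names the PVN. The VMH factor Nr5a1 read 94.9 in sham and 67.3 to 158 on the other arrays, the PVN peptide genes Trh and Oxt read 109 to 157.5 and 11.5 to 52.8, and the other 4 of the PVN and supraoptic markers were too dim to be kept or had no probe set (Avp, Crh, Sim1 and Otp).

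The respiratory chain moves electrons from NADH and succinate to oxygen. Complex I (NADH dehydrogenase) and complex II (succinate dehydrogenase, also an enzyme of the citric acid cycle) pass electrons to ubiquinone, complex III hands them to cytochrome c, and complex IV (cytochrome c oxidase) reduces oxygen. Complexes I, III and IV pump protons, and ATP synthase uses the gradient to make ATP, which neurons spend largely on restoring ion gradients after firing. A few catalytic subunits are encoded by mitochondrial DNA and are not among the genes described here.

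Nuclear genes of this system are known for promoters with sites of the factors NRF1 and GABP (an ETS factor). RefSeq promoter windows (GRCm38.p6, 250 bases before to 50 after a start site) matched 73 of the 87 member genes. The NRF1 letters (GCGC, 1 free base, TGCGC) were found on either strand in 23.3% of these 73 genes, against 7.17% of 17491 genes with a window. The ETS letters CCGGAAG were found in 27.4% of the member genes and 12.9% of all genes. The YY1 core letters AAGATGG were found in 13.7% against 7.18%, and the longer YY1 motif, in which CGGC follows the core, in 4.11% against 1.06%. Median GC content was 58.8% for member windows and 56.3% for all windows, and the part of base composition in these shares was not tested. The 120 bases before the start sites of 4 members are shown, chosen because they include the members with the narrowest ranges over the arrays (Ndufb7 and Sdha) and others with wide ones (Sdhd and Ndufa8). Capitals mark NRF1 or ETS letters on either strand.
Sdha, chr13:74350241-74350360, minus strand: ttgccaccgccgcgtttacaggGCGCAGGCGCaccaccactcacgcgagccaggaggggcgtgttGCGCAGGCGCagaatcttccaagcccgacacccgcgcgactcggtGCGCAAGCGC
Ndufb7, chr8:83566638-83566757, plus strand: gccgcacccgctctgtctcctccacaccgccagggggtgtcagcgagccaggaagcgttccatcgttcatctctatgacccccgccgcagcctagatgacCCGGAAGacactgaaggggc
Sdhd, chr9:50603850-50603969, minus strand: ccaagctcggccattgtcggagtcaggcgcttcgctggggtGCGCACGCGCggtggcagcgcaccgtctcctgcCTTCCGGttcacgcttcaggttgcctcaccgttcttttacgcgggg
Ndufa8, chr2:36049339-36049458, minus strand: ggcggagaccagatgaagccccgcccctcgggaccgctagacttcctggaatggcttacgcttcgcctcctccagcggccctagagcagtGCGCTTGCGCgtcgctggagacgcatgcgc
Sdha carries 3 NRF1 matches in this stretch, Sdhd has 1 NRF1 and 1 ETS match, Ndufa8 has 1 NRF1 match and Ndufb7 has 1 ETS match. The letters were present in genes that varied little and in genes that varied more. Among kept members with a window, 35 held NRF1, ETS or YY1 letters and had a median range over the 5 arrays of 0.60 on the log2 scale, and 32 held none and had 0.46.

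The members differed little between the arrays. The median member spanned 0.47 on the log2 scale from its lowest to its highest array, a 1.39-fold range, while the median of all genes kept was 0.98, or 1.97-fold. In the 8 comparisons, 83.5% to 91.1% of the members lay within 0.5 of no difference, against 56% to 62.4% of all genes. Counting any of the 8 comparisons, 8 of 79 members passed 2-fold (10.1%), against 45.9% of all genes. Only 4 of the 8 were subunits: Ndufa6, Uqcrfs1, Cox8a and Cox6a2. The others were the assembly factors Sdhaf1, Sdhaf2, Sdhaf4 and Ndufaf7.

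**Figure D1:**
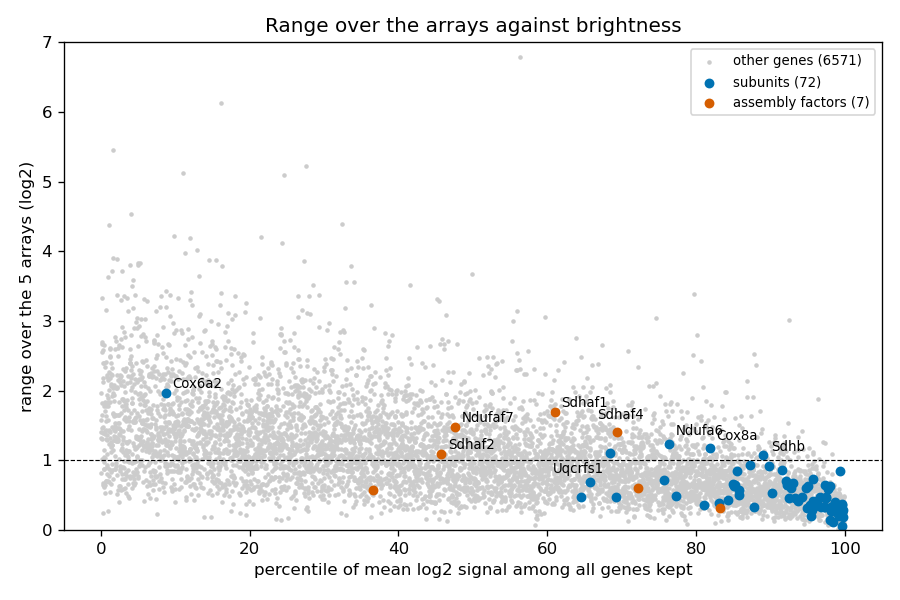
Range of each gene over the 5 arrays (log2, highest minus lowest) against the percentile of its mean signal among 6650 genes, with 72 subunits in blue, 7 assembly factors in orange, other genes in grey and a dashed line at 2-fold. Most subunits lie at the bright end with narrow ranges, and the 9 members above the line are named.

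Brightness moves with this range. Of the 79 members, 50 lay in the brightest 10% of all genes, and there their median range was 0.37, against 0.46 for the other 615 genes of that group. None of these 50 members passed 2-fold in any comparison, and 33 of the 615 others did (5.37%). In the plot of range against brightness, all 9 members with a range past 2-fold lie below the brightest 10% of the genes. How far brightness accounts for the narrow ranges was not tested.

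At 2 h after 1 shock, which addresses what a single seizure does at the time matched to sham, 1 of 79 members passed 2-fold, with 12.3% of all genes past it in either direction. That gene was Sdhaf1. The members' median stood 0.08 above the median of all genes, and at -0.01 with cyclic loess normalization. At 2 h after 7 shocks, 3 members passed 2-fold against a background of 13.3%, with Cox8a higher and Sdhaf1 and Sdhaf4 lower. The median was -0.03 relative to all genes.

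At 6 h after 1 shock, 2 members passed 2-fold against 14.1% of all genes, Sdhaf2 higher and Cox6a2 lower, and the members' median stood 0.14 above that of all genes. Among the brightest 10% of genes, the median difference there was 0.20 for the 50 members and 0.16 for the 615 other genes. At 6 h after 7 shocks, Sdhaf1 alone passed, against 13.8%, and the median was -0.02. All 4 comparisons share the sham array, so that a member's position in it enters each of them. Of the 79 members, 26.6% were lowest on the sham array, against 19.8% of all genes and 28.3% of the other genes in the brightest 10%.

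Setting 7 shocks against 1 asks how repetition alters the response. At 2 h, 1 member passed 2-fold (Ndufa6, lower), with a background of 13.7%, and the members' median was -0.11 relative to all genes. At 6 h, 4 passed against 16.5%, of which Cox6a2 was higher and Sdhaf1, Ndufaf7 and Uqcrfs1 were lower after 7 shocks. There the median was -0.18, and 64 of 79 members read lower after 7 shocks than after 1.

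Setting 6 h against 2 h follows the time course. After 1 shock, 2 members passed 2-fold against 15% of all genes, Sdhaf1 higher and Cox6a2 lower at 6 h, and the median was 0.08. After 7 shocks, only Ndufa6 passed, higher at 6 h, against 12.9%, and the median was 0.02 (-0.01 with cyclic loess normalization). In each of the 8 comparisons the members' share past 2-fold was below the background share.

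The members were most often highest at 6 h after 1 shock. On that array 39 of 79 members had their highest value (49.4%), against 25.6% of all genes and 38.5% of the other genes in the brightest 10%, and 66 members read above the mean of the other 4 arrays. With quantile normalization in place of centring, 27 members were highest there (34.2%) and the median difference from sham, relative to all genes, moved from 0.14 to 0.02. With cyclic loess normalization, these values were 28 members (35.4%) and 0.04. The other bright genes came to 22.0% and 23.6% under these 2 settings, each below the members' share. The count of highest arrays was chosen after seeing the data.

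**Figure D2:**
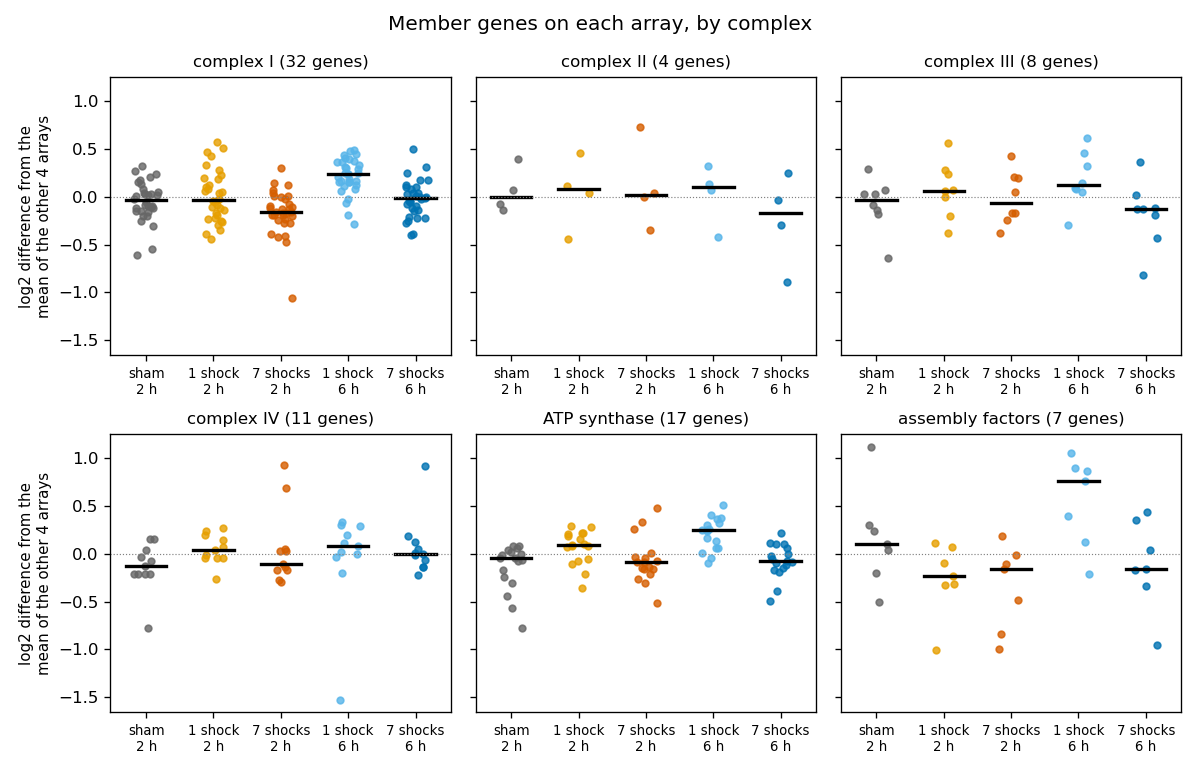
Difference of each member from the mean of the other 4 arrays (log2) on each array, in 6 panels for complexes I to IV, ATP synthase and assembly factors, 1 point per gene and a black bar at the median. The medians of all 6 panels are highest at 6 h after 1 shock. They are 0.24, 0.10, 0.12 and 0.08 for complexes I to IV, 0.25 for ATP synthase and 0.76 for the assembly factors. The median of all genes is 0.06 on that array. Relative to all genes, the medians of complexes II, III and IV are 0.04, 0.06 and 0.02 there. At 2 h after 1 shock these relative medians are higher, at 0.08, 0.07 and 0.04.

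Signals of cell type markers varied over the same arrays. All 12 neuron markers, 8 of 8 astrocyte, 6 of 8 oligodendrocyte, 7 of 9 microglia and 3 of 8 vascular markers were kept. No listed marker with a probe set was at 0 on any array. Their summed centred signals ran from 15763 to 18497 for neurons, from 4078 to 4763 for astrocytes, from 5405 to 6227 for oligodendrocytes, from 1632 to 1768 for microglia and from 258 to 455 for endothelium and pericytes. A sum can hide opposite moves. At 2 h after 7 shocks, 5 of the 7 microglia markers read below the mean of the other arrays and 2 above. Their median there was -0.68 relative to all genes. The 4 kept VMH markers, of 9, summed to 1909 in sham and 3101 at 6 h after 1 shock, and the vascular and oligodendrocyte sums were also highest on that array. The sum of the 3 kept arcuate markers, of 6, ran from 374 to 859, highest at 6 h after 7 shocks. The part of tissue composition in the members' values was not tested. In such bulk samples fewer cells of a type and less RNA per cell cannot be told apart.

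**Figure D3:**
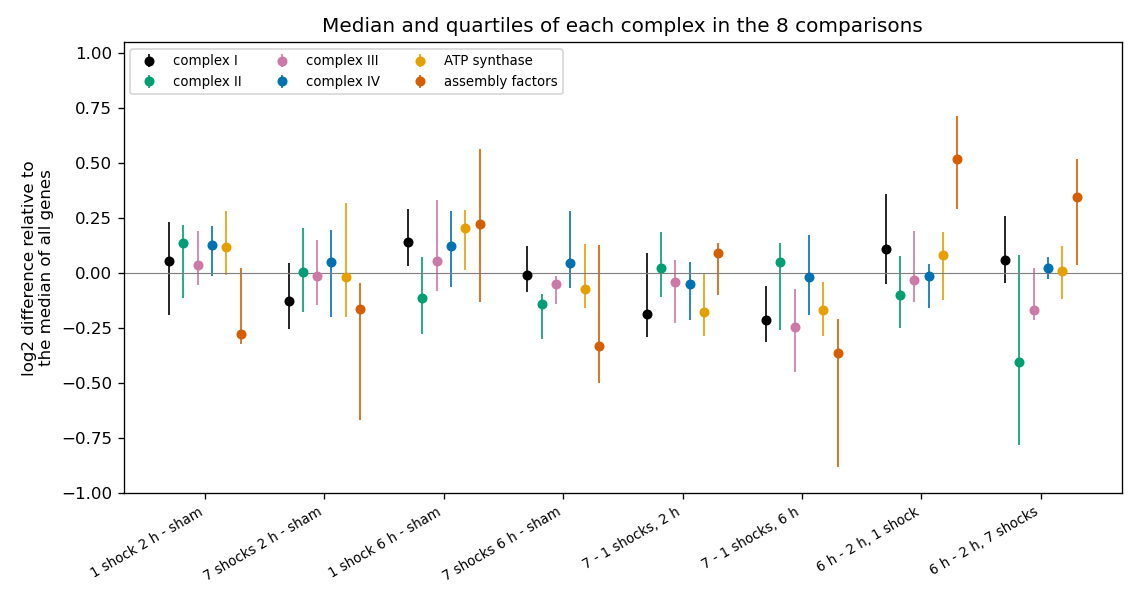
Median log2 difference of each complex relative to the median of all genes (points) with the quartiles of its genes (bars) in the 8 comparisons; each comparison sets 1 array against 1 array. Medians of the 5 enzyme complexes lie between -0.40 and 0.21, and those of the assembly factors between -0.36 and 0.52.

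Complex I takes electrons from NADH through a flavin and a row of iron-sulfur clusters. All 6 of its core genes on the array were kept, with 26 of 27 accessory genes. The medians of the 32 genes relative to all genes were 0.05 at 2 h after 1 shock (-0.03 with quantile or cyclic loess normalization), -0.13 at 2 h after 7 shocks, 0.14 at 6 h after 1 shock and -0.01 at 6 h after 7 shocks. At 6 h, 26 of the 32 read lower after 7 shocks than after 1, with a relative median of -0.21. Of the 32, 25 stood below the median difference of all genes (-0.05). None of the 6 core genes passed 2-fold in any comparison, and their ranges were 0.35 to 0.65.

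Ndufv1, which carries the flavin that accepts electrons from NADH, read 964 in sham, 1044 after 1 shock and 898 after 7 shocks at 2 h, and 1250 after 1 shock and 979 after 7 shocks at 6 h. Ndufv2, an iron-sulfur subunit beside it, read 1160 in sham, 1213 and 1281 at 2 h after 1 and 7 shocks, and 1479 and 1375 at 6 h. On these brightest probe sets both were highest at 6 h after 1 shock, and Ndufv2 was lowest in sham. Its other kept probe sets were lowest at 2 h, at 1086 after 1 shock (1136 in sham) and 402 after 7 shocks (464 in sham). The dimmest was highest at 6 h after 7 shocks, at 561. For Ndufv1, the dimmest probe set stood -0.51 from sham at 2 h after 1 shock, where the brightest gave 0.12. Ndufs7, which holds the last cluster before ubiquinone, read 744 in sham, 936 and 772 at 2 h after 1 and 7 shocks, and 1128 and 878 at 6 h. Ndufs3, a core subunit of the peripheral arm, read 528 in sham, 409 and 355 at 2 h after 1 and 7 shocks, and 555 and 490 at 6 h, so both 2 h ECS arrays were below the rest.

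Ndufs1, the largest iron-sulfur subunit, went the other way at 6 h after 1 shock: it read 238 in sham, 175 and 186 at 2 h after 1 and 7 shocks, and 171 and 237 at 6 h. Its sham value and its value at 6 h after 7 shocks were nearly equal and stood above the other 3. Ndufs8, an iron-sulfur subunit with 6 kept probe sets, read 779 in sham, 540 and 605 at 2 h, and 720 and 742 at 6 h on the brightest. At 2 h after 1 shock its other probe sets differed from sham by between -0.82 and 0.36, so the probe sets did not share a sign.

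The accessory subunits surround the core and are needed for assembly and stability. Ndufa6, a member of the LYR protein family that binds the acyl carrier protein Ndufab1, read 298 in sham, 354 after 1 shock and 152 after 7 shocks at 2 h, and 264 after 1 shock and 360.2 after 7 shocks at 6 h. The array of 7 shocks at 2 h was the low one, and the other 4 lay between 264 and 360.2. The log2 difference was -1.22 from 1 shock at the same time and 1.24 from 2 h to 6 h after 7 shocks. It rests on 1 probe set, and without rescaling of the arrays the first of these was -0.58. Its partner Ndufab1 was also lowest there, at 363, against 410.3 in sham, 520 after 1 shock at 2 h, 563 after 1 shock at 6 h and 460 after 7 shocks at 6 h. The difference of Ndufab1 from sham was -0.18, against -0.97 for Ndufa6. Of the 32 complex I genes, 10 were lowest on that array, against 20.1% of all genes and 26.3% of the other genes in the brightest 10%.

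Ndufa8, an accessory subunit of the membrane arm, had the next widest range among complex I genes, 0.94. It read 370 in sham, 709 and 554 at 2 h after 1 and 7 shocks, and 571 and 443 at 6 h, with sham below all 4 ECS arrays. Ndufb2, another membrane arm subunit, read 345 in sham, 618 and 505 at 2 h, and 549 and 375 at 6 h, again lowest in sham. The second probe set of Ndufb2 was lowest in sham too, with differences of 0.72, 0.27, 0.78 and 0.37 for 1 shock at 2 h, 7 shocks at 2 h, 1 shock at 6 h and 7 shocks at 6 h.

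At the other end, Ndufb7 spanned 0.06, the narrowest range of all members, with 4468 in sham, 4307 and 4386 at 2 h after 1 and 7 shocks, and 4356 and 4486 at 6 h. Its dimmer probe set did not share this: it read 385 in sham and 181 at 6 h after 7 shocks, a difference of -1.09. Ndufa13, also known as GRIM-19, spanned 0.26, from 2508 in sham to 2997 at 6 h after 1 shock. The other accessory genes had ranges between 0.29 and 0.72.

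Complex II had 4 of 4 genes kept and the widest median range among the enzyme complexes, 0.80. Its relative medians were 0.14 and 0.01 at 2 h after 1 and 7 shocks, the latter below 0 with quantile or loess normalization, and -0.11 and -0.14 at 6 h. On the brightest probe sets, no complex II gene passed 2-fold in a comparison, and the 4 genes followed different courses. The other Sdhc probe set stood -1.08 for 6 h against 2 h after 7 shocks, where the brightest gave -0.83.

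Sdha, the flavoprotein that oxidises succinate, was nearly flat: 2354 in sham, 2506 and 2446 at 2 h after 1 and 7 shocks, and 2547 and 2408 at 6 h, a range of 0.11. Its dimmer probe set read 574 in sham and between 433 and 540.1 on the ECS arrays. Sdhb, which carries the iron-sulfur clusters that lead electrons to ubiquinone, read 624 in sham, 774 and 613 at 2 h, and 717 and 366 at 6 h. The array of 7 shocks at 6 h stood alone at the low end, -0.97 from 1 shock at that time and -0.77 from sham.

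Sdhc and Sdhd anchor the complex in the membrane. Sdhc read 595 in sham, 685 and 964 at 2 h after 1 and 7 shocks, and 508 and 544 at 6 h. Both of its probe sets were highest at 2 h after 7 shocks, by 0.70 and 0.90 over sham. Sdhd read 1110 in sham, 696 and 734 at 2 h, and 958 and 1018 at 6 h on its brightest probe set, with both 2 h ECS arrays low (-0.67 and -0.60). On the other Sdhd probe set these differences were -0.10 and -0.15.

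**Figure D4:**
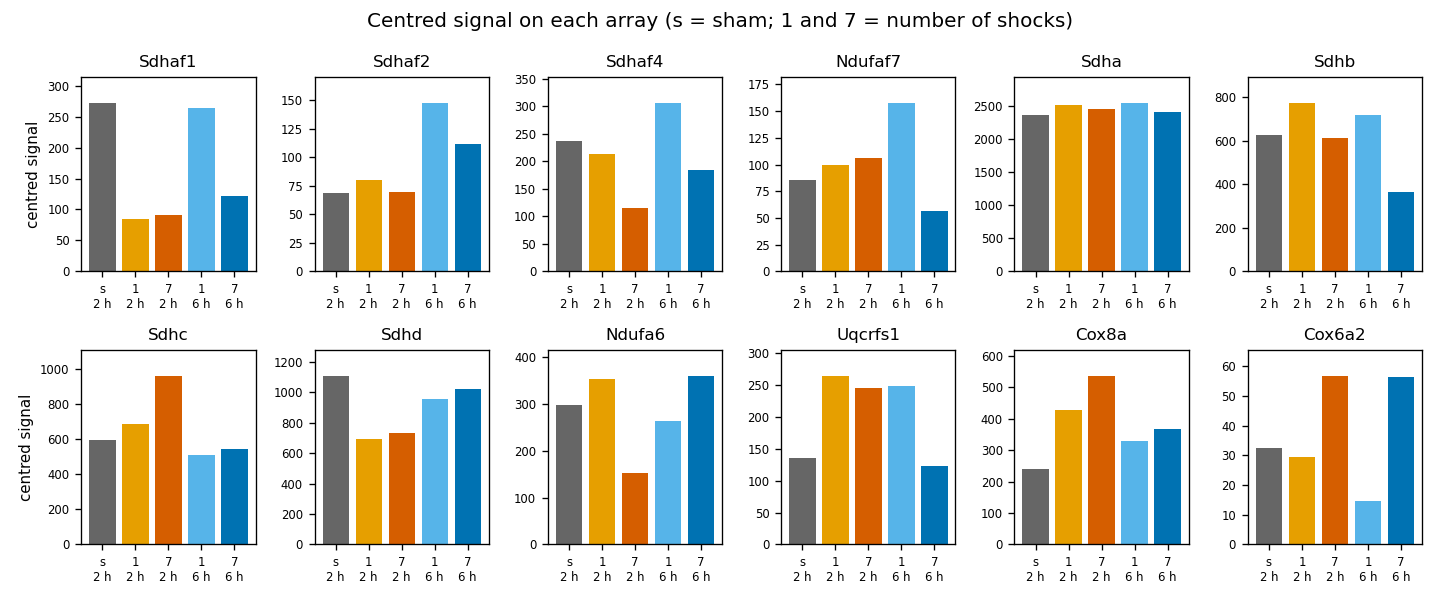
Centred signal on each of the 5 arrays for 12 members, with s for sham and 1 or 7 for the number of shocks; each bar is 1 array and there is no error bar. Sdhaf1 is high in sham and at 6 h after 1 shock, Ndufa6 is low at 2 h after 7 shocks, Sdhb is low at 6 h after 7 shocks and Sdha is nearly level.

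The assembly factors varied more than the subunits. Their median range was 1.10, a 2.14-fold span, against 0.34 to 0.80 for the classes of subunits, and 4 of the 7 passed 2-fold in some comparison. Both values lay near those of all genes kept, which had a median range of 0.98 and of which 45.9% passed 2-fold in some comparison. At 6 h after 1 shock, 6 of the 7 stood above the mean of the other arrays. None of the 7 lay in the brightest 10% of genes, where ranges were narrow, and the part of brightness in their wider range was not tested.

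Sdhaf1 aids the insertion of iron-sulfur clusters into Sdhb. It read 273 in sham, 83.9 after 1 shock and 91.9 after 7 shocks at 2 h, and 264 after 1 shock and 122 after 7 shocks at 6 h. The sham array and the array of 1 shock at 6 h were high and the other 3 were low. The differences from sham were -1.70 at 2 h after 1 shock, -1.57 at 2 h after 7 shocks, -0.05 at 6 h after 1 shock and -1.16 at 6 h after 7 shocks. Sdhaf1 was the member furthest from sham in all of these but the third. At 6 h it stood -1.11 lower after 7 shocks than after 1, and after 1 shock it stood 1.65 higher at 6 h than at 2 h. It rests on 1 probe set. Without rescaling of the arrays its difference at 6 h after 7 shocks was -0.68, short of 2-fold.

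Sdhaf4, which binds Sdha before Sdhb joins it, read 237 in sham, 214 and 115 at 2 h after 1 and 7 shocks, and 307 and 183 at 6 h. It was lowest at 2 h after 7 shocks (-1.04 from sham). Without rescaling that difference was -0.53. Sdhaf2, which promotes the attachment of flavin to Sdha, read 69.03 in sham, 80.1 and 69.8 at 2 h, and 148 and 111 at 6 h, so both 6 h arrays were above the rest. Its difference at 6 h after 1 shock was 1.10, whereas its other kept probe set of like brightness gave -0.17.

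Ndufaf7, a methyltransferase needed early in complex I assembly, read 85.8 in sham, 100.03 and 106 at 2 h after 1 and 7 shocks, and 158 and 56.5 at 6 h. Its extremes were the pair of 6 h arrays, with 7 shocks -1.49 from 1 shock. Ndufaf3, which acts early in complex I assembly, read between 59.5 and 88.6. Ndufaf4, its partner, read between 191 and 291. Ndufaf5, which modifies the core subunit Ndufs7, had the narrowest range of the factors, from 364 to 455. Of these 3, none passed 2-fold.

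Complex III was kept with 8 of 8 genes and had relative medians of 0.04 and -0.01 at 2 h after 1 and 7 shocks and of 0.06 and -0.05 at 6 h, where 0.06 turned to -0.04 with quantile normalization. At 6 h, 7 of the 8 read lower after 7 shocks than after 1, with a relative median of -0.24. The count below the median difference of all genes (-0.05) was also 7. Uqcrfs1, the Rieske iron-sulfur protein that takes electrons from ubiquinol, was the widest, at 1.10. It read 136 in sham, 265 and 245 at 2 h after 1 and 7 shocks, and 249.3 and 123 at 6 h. Sham and 7 shocks at 6 h were the low pair and the other 3 arrays were about alike. The difference of 7 from 1 shock at 6 h was -1.02, and it passed 2-fold in 4 of 9 other settings.

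The core proteins Uqcrc1 and Uqcrc2 support the complex from the matrix side. Uqcrc1 read 172 in sham, 134 and 185 at 2 h after 1 and 7 shocks, and 173 and 166 at 6 h. Uqcrc2 read 1012 in sham, 1165 and 1248 at 2 h, and 1177 and 1007 at 6 h. Both were highest at 2 h after 7 shocks, by margins under 2-fold. Uqcrb, a small subunit near the ubiquinone site, spanned 0.14 on its brightest probe set. Its dimmer probe set did not share this: it read 244 in sham and 512 at 6 h after 1 shock, a difference of 1.07. Uqcr10, another small subunit, read 638 at 6 h after 1 shock and between 405 and 426 on the other 4 arrays. Its other probe sets differed from sham there by -0.57 and -0.04 and were not higher there.

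Complex IV had 11 of 17 genes kept, among them Ndufa4, which is named for complex I but is now placed in complex IV. Its median range, 0.34, was the narrowest of the classes. Relative medians were 0.13 and 0.05 at 2 h after 1 and 7 shocks and 0.12 and 0.05 at 6 h, where 0.12 turned to -0.02 with cyclic loess normalization. Cox4i1, the regulatory subunit that binds ATP, read 1946 in sham, 1753 and 1540.0 at 2 h, and 1902 and 1838 at 6 h. Cox5a read 1615 in sham and 1812 to 2026 on the ECS arrays, so it was lowest in sham. Cox5b, with 4 kept probe sets, spanned 0.20, from 3016 to 3455. Cox6c, a small membrane subunit, spanned 0.26, from 3912 at 2 h after 7 shocks to 4676 in sham.

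Cox8a, the common isoform of the smallest subunit, read 238 in sham, 426 and 537 at 2 h after 1 and 7 shocks, and 327 and 367 at 6 h. Sham was the lowest array and 7 shocks at 2 h the highest, at 1.17 from sham. This brightest probe set carries a suffix for cross-hybridisation, and the other Cox8a probe set went the other way, with 172 in sham and 102 at 2 h after 7 shocks (-0.75).

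Several subunits of complex IV come in a general and a muscle form. Cox6a2, the heart and skeletal muscle form, was dim and had the widest range of all members, 1.97: it read 32.6 in sham, 29.3 and 57.0 at 2 h after 1 and 7 shocks, and 14.5 and 56.6 at 6 h. Both arrays of 7 shocks were above the other 3, by 0.96 over 1 shock at 2 h and 1.96 at 6 h. Its difference of -1.16 from sham at 6 h after 1 shock passed 2-fold in 5 of 8 other settings. The general form Cox6a1 read 1988 in sham, 2185 and 2276 at 2 h, and 2261 and 2481 at 6 h, a range of 0.32. For Cox6b1 the values ran from 2035 in sham to 2451 at 6 h after 7 shocks. Cox7a2 and Cox7a2l, the latter a factor of supercomplexes, were highest at 6 h after 1 shock, at 3139 and 3132, and lowest in sham, at 2373 and 2432. The dimmer Cox7a2l probe sets were also highest there but were lowest at 2 h after 7 shocks, at 1764 and 725, against 1957 and 745 in sham.

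The other forms Cox4i2, Cox6b2, Cox7a1 and Cox8b, and the testis form Cox8c, lay below the brightness filter. So did Cox7c, Ndufb1 and Ndufaf1. Cox7c is a subunit without a tissue form, yet its probe sets read at most 30.8 in deposited units, so its probe sets carry little signal here. Ndufa11, Ndufa11b, Ndufab1-ps, Ndufb4, Ndufb4b, Ndufb4c, Ndufs5-ps, Ndufs6 and Ndufs6b had only probe sets shared with another symbol and were left out.

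ATP synthase was complete on this filter, with 17 of 17 genes and none past 2-fold. Relative medians were 0.12 and -0.02 at 2 h after 1 and 7 shocks and 0.21 and -0.07 at 6 h. At 6 h, 16 of the 17 read lower after 7 shocks than after 1, with a relative median of -0.17, and under quantile normalization that median was -0.03. The count below the median difference of all genes (-0.05) was also 16. Atp5a1, the alpha subunit, read 5142 in sham, 5491 and 4498 at 2 h, and 4793 and 4638 at 6 h. Its other kept probe sets were lowest in sham, with differences of 0.01 to 0.11 and of 0.12 to 0.48 on the ECS arrays. Atp5b, the catalytic beta subunit, read 807 in sham, 869 and 1110.3 at 2 h, and 956 and 893 at 6 h, lowest in sham. Atp5c1, the rotating gamma subunit, read 1584 in sham and between 1433 and 1802 on the ECS arrays. A much dimmer Atp5c1 probe set, at 37.0 in sham, stood above sham by 0.20 and 0.74 at 2 h after 1 and 7 shocks. At 6 h it stood above sham by 0.71 and 0.98.

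Atp5g1, Atp5g2 and Atp5g3 encode the same mature c subunit of the rotor ring. Atp5g3 read 1445 in sham, 1955 and 1811 at 2 h after 1 and 7 shocks, and 2264 and 1850.1 at 6 h, so sham was below all ECS arrays. Atp5g1 read between 311 and 398, with its highest value at 6 h after 1 shock. Atp5g2 read 170 in sham, 142 and 227 at 2 h, and 206 and 140 at 6 h. The 3 genes had their lowest values on different arrays.

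Atp5mpl, a small proteolipid of the membrane part, had the widest range of ATP synthase genes, 0.86. It read 564 in sham, 807 and 715 at 2 h, and 1024 and 818 at 6 h. Atp5k, the e subunit at the dimer interface, read 2242 in sham and 3581 to 4045 on the ECS arrays. For both the sham array stood below the rest, yet the other Atp5k probe sets gave differences of 0.41 and -0.13 at 2 h after 1 shock. The narrowest were Atp5h, a stalk subunit, at 0.19, and Atp5o, which joins stalk and head, at 0.20.

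Probe sets of the same gene can be set against each other as a check within these arrays. Of the 79 members, 42 had several kept probe sets. Between the 2 brightest, the differences correlated at -0.33 to 0.36 over these 42 genes in the 8 comparisons, and 22 to 30 of 42 shared a sign. Over all 2470 genes with several kept probe sets the correlation was 0.128 to 0.274. Points share the arrays, so this is a description. The median gap between the 2 probe sets of a member was 0.155 to 0.219, set beside relative medians of the members between -0.18 and 0.14.

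Genes outside the prefixes place these values in their pathway. Of the 8 electron carrier genes kept, cytochrome c (Cycs) read 890 in sham and 908 to 1003 on the ECS arrays, and Dhodh, which feeds electrons from pyrimidine synthesis to ubiquinone, passed 2-fold at 2 h after 7 shocks, with 94.4 against 20.5. Of 19 other assembly genes, 1 was higher and 1 lower past 2-fold at 2 h after 1 shock, near the 12.3% of all genes called there. Of these, Ttc19, a complex III factor, read 40.5 in sham and 105 to 116 on the ECS arrays, and Cox15, a heme synthesis factor for complex IV, read 63.4 and 21.6 to 41.9. The other Cox15 probe sets went the opposite way on some arrays, at 0.96 to 1.11 from sham at 2 h after 7 shocks and 0.82 to 1.27 at 6 h after 1 shock.

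The citric acid cycle and pyruvate dehydrogenase list had 19 genes kept, with relative medians between -0.14 and 0.17. Ogdh, the 2-oxoglutarate dehydrogenase, was lower on all ECS arrays, with 202 in sham and 71.1 to 90.7 on them. Idh2, the mitochondrial NADP-linked isocitrate dehydrogenase, was higher on them, with 28.8 in sham and 50.9 to 87.8. Pdk1, a kinase that inhibits pyruvate dehydrogenase, read 137 in sham and 140.5 and 139 after 1 shock, but 63.6 and 72.9 after 7 shocks at 2 h and 6 h. Its other probe set gave 0.43 for 7 shocks against 1 at 2 h, where the brightest gave -1.14, and stood -0.73 from sham at 2 h after 1 shock. On their brightest probe sets, none of the 10 kept genes of ATP and ion carriers passed 2-fold in any comparison, against 45.9% of all genes. The other Ckmt1 probe set stood -1.18 from sham at both 2 h and 6 h after 1 shock, where the brightest gave -0.23 and 0.00. After 7 shocks it stood -0.97 and -0.94 from sham at 2 h and 6 h, where the brightest gave 0.43 and 0.23.

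Among 11 regulators of mitochondrial biogenesis, Ppargc1a, the coactivator PGC-1alpha, read 171 in sham, 191 and 154 at 2 h after 1 and 7 shocks, and 64.0 and 115 at 6 h. It was lowest at 6 h after 1 shock, where its other probe sets stood between -1.29 and 0.72 from sham. The other 10 of the 11 regulators stood above the mean of the other arrays there. Against sham, however, 6 of the 11 read higher on that array and 5 lower. Nrf1 read 46.3 in sham, 48.8 and 21.2 at 2 h, and 42.5 and 66.3 at 6 h. Gabpb1, a GABP subunit, read 18.5 in sham and 28.9 to 73.4 on the ECS arrays. Tfam, which packages mitochondrial DNA, read 62.7 in sham and 67.3 to 102 on them.

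The 71 kept mitochondrial ribosomal protein genes, which serve translation of the mitochondrially encoded subunits, were also often highest at 6 h after 1 shock. That held for 34 of the 71, and 59 stood above the mean of the other arrays. Their relative median was 0.24 against sham on that array and -0.27 for 7 shocks against 1 at 6 h. The 17 kept glycolysis genes had relative medians of 0.09 to 0.16 against sham, and 15 of them read below the mean of the other arrays in sham. The glucose transporter gene Slc2a1 read 487 in sham and 831 at 2 h after 1 shock, and the neuronal one, Slc2a3, read 461 and 255.

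**Figure D5:**
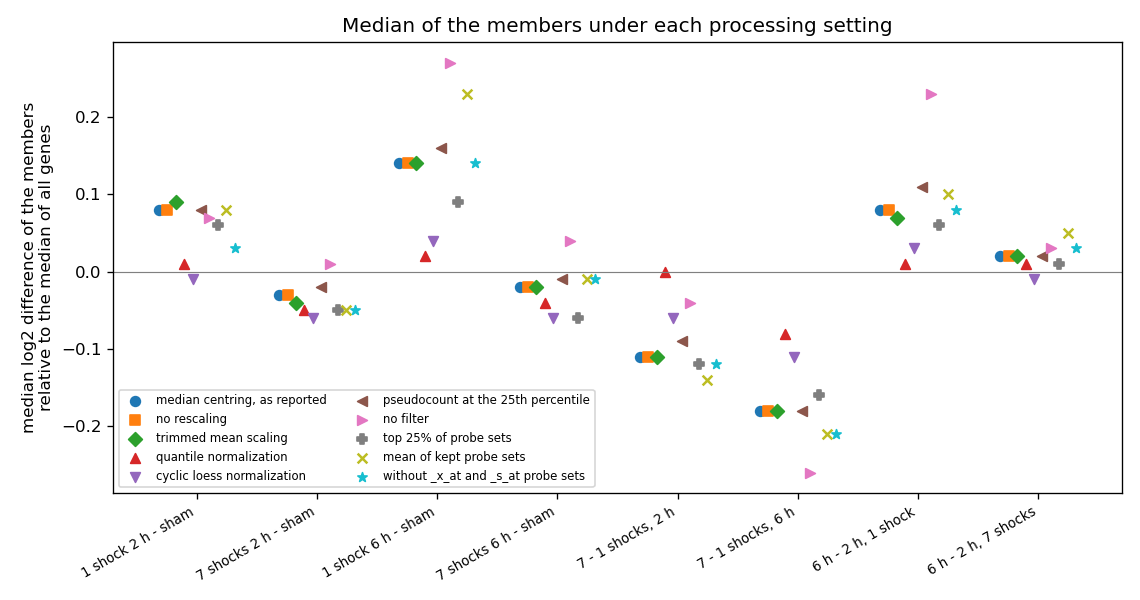
Median log2 difference of all members relative to the median of all genes in each of the 8 comparisons, under the reported processing and 9 alternatives (1 symbol each). At 6 h after 1 shock against sham the values run from 0.02 to 0.27, and for 7 shocks against 1 at 6 h they are all below 0, from -0.26 to -0.08.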

How the data were processed

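The authors deposited MAS5 signals, linear intensity values for each probe set, per the submitters' processing notes; the sources used here give neither software version nor scaling target. Per the labels' protocols, 2 ng of RNA was amplified and 5 µg of labelled cDNA hybridised. Of 22690 probe sets, 64 controls, 691 with several symbols and 1555 with none were left out. Signals were taken to log2 after adding 1.2 (their 10th percentile). The brighter 50% of probe sets by mean log2 were retained (10402, for 6650 genes), each array was centred on their median, and a gene took its brightest probe set. Of the 79 members kept, 21 rest on a probe set with the suffix _x_at or _s_at. No test was run, since each group has 1 array. Alternatives were no rescaling, trimmed mean scaling (2% at each end), quantile and cyclic loess normalization, a constant of 6.1 (the 25th percentile), no filter, the top 25%, the mean of a gene's probe sets, and leaving out _x_at and _s_at probe sets. The scripts were tested on simulated data. Members, lists and the naming rule were chosen with earlier results of these data known. Named genes were every kept member past 2-fold (up to 4 per direction), the 2 widest and 2 narrowest per complex, catalytic core subunits, paralog groups, and the 2 furthest genes per list, of which some are given; Ndufab1, Ndufb2, Ndufaf4, Tfam and Ppargc1a were added after seeing the values. A planned comparison of paralog proteins was not made. Python 3.11.15, pandas 2.3.3, numpy 2.4.6, R 4.3.3 and limma 3.58.1 were used.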

Additional observations from a re-analysis of the deposited data

Results flagged for a closer look

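In 3 members the sign of a difference turned between time points or numbers of shocks, with at least 1 of the pair past 2-fold. Each value compares 2 single arrays, and the difference between the values was not tested. For Ndufa6, 6 h minus 2 h was -0.42 after 1 shock and 1.24 after 7 shocks, and 7 shocks minus 1 was -1.22 at 2 h and 0.45 at 6 h; both pairs rest on the low array of 7 shocks at 2 h. For Ndufaf7, 7 shocks minus 1 was 0.09 at 2 h and -1.49 at 6 h. For Sdhaf1, the same contrast was 0.13 at 2 h and -1.11 at 6 h. The 2 h values of Ndufaf7 and Sdhaf1 were near 0. They lay within the standard deviation per probe set of 0.26 seen among members with several probe sets in that comparison.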

How the results depend on the processing

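Medians are relative to all genes, counts are members past 2-fold, and a comparison named by 1 group is against sham. Under the alternatives, 444 medians of members and complexes stayed within the spread between probe sets of a gene and 60 did not, and 45 counts stayed within 1.5 times and 27 did not. With quantile normalization, at 2 h after 1 shock the medians were 0.01 for members, -0.03 for complex I and 0.04 for ATP synthase; at 6 h after 1 shock 0.02, 0.02, 0.01 for complex IV and 0.09 for ATP synthase, with a count of 1. For 7 against 1 shock at 2 h they were 0.00 for members, -0.10 for complex I and -0.06 for ATP synthase, and at 6 h -0.08, -0.14, 0.14 for complex IV and -0.03. For 6 h against 2 h after 1 shock the members' median was 0.01 and the count 1. With cyclic loess, the medians were -0.01 for members, -0.03 for complex I and 0.03 for ATP synthase at 2 h after 1 shock, and 0.04, 0.03, -0.02 for complex IV and 0.09 at 6 h (count 1). For 7 against 1 they were -0.06 for members and -0.11 for complex I at 2 h, and -0.11 for members and -0.07 for ATP synthase at 6 h; for 6 h against 2 h, 0.03 after 1 shock (count 1), with a count of 2 after 7 shocks. With no filter, counts were 5, 6, 6 and 3 against sham (1 shock at 2 h, 7 shocks at 2 h, 1 at 6 h, 7 at 6 h), 3 and 8 for 7 against 1 at 2 h and 6 h, and 4 and 5 for 6 h against 2 h after 1 and 7 shocks. The medians were then 0.27 for members and complex I, 0.19 for complex III, 0.25 for complex IV and 0.34 for ATP synthase at 6 h after 1 shock; 0.04 for members and -0.11 for assembly factors at 6 h after 7 shocks; -0.04 for members and -0.12 for complex I for 7 against 1 at 2 h; -0.26, -0.28 and -0.13 for members, complexes I and IV at 6 h; and 0.23, 0.28, 0.12, 0.14 and 0.23 for members, complexes I, III and IV and ATP synthase for 6 h against 2 h after 1 shock. Without rescaling, counts were 8, 9 and 5 (7 shocks at 2 h, 1 at 6 h, 7 at 6 h), 4 for 7 against 1 at 2 h, and 11 and 2 for 6 h against 2 h. The share of all called genes that were higher was then 33.7%, 90.3%, 83.1% and 88.6% against sham, for 48.8%, 49.4%, 47.8% and 49.0% with centring; it was 94.4% and 58.3% for 7 against 1 at 2 h and 6 h, for 50.3% and 47.9%, and 90% for 6 h against 2 h after 1 shock, for 49.4%. The median of all genes was then shifted by -0.12, 0.51, 0.46 and 0.50 from sham. The larger constant gave counts of 1 at 6 h after 1 shock and for 6 h against 2 h after 1 shock. Trimmed mean scaling gave 2 for 6 h against 2 h after 7 shocks. The top 25% gave 0.09 for members, -0.16 for assembly factors and a count of 0 at 6 h after 1 shock, -0.68 for assembly factors and a count of 2 for 7 against 1 at 6 h, and a count of 1 for 6 h against 2 h after 1 shock. The mean of probe sets gave 0.23 for members and complex I at 6 h after 1 shock (count 1), 0.11 for ATP synthase at 6 h after 7 shocks, -0.16 for complex III for 7 against 1 at 2 h, and 0.09 for complex III and 0.11 for assembly factors for 6 h against 2 h after 1 and 7 shocks. Without _x_at and _s_at probe sets, the medians were 0.03 for members and -0.05 for complex I at 2 h after 1 shock, 0.07 for assembly factors at 6 h after 1 shock, 0.11 for ATP synthase and -0.16 for assembly factors at 6 h after 7 shocks, -0.12 for complex I for 7 against 1 at 2 h and 0.19 for 6 h against 2 h after 1 shock; the count for 6 h against 2 h after 7 shocks was 2, and Cox8a at 2 h after 7 shocks reversed to -0.75. The cause of these shifts was not tested. No paired analysis was possible because each group has 1 array.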
